A study of Mus musculus with 11 samples.

Results

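The Eph receptors and ephrins described here are 10 genes chosen by name: the receptors Epha2, Epha3, Epha4, Epha7, Ephb2, Ephb3 and Ephb4, and the ligands Efna5, Efnb1 and Efnb2. They are 10 of 46469 gene symbols in the expression tables, and of the 22 Eph and ephrin genes looked up they leave 12 others, which are given further on. Each of the 10 had 1 locus and no failed estimate. 8 of them passed the filter on low values and were tested, and Epha3 and Epha7 did not pass.

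The series measured poly(A) RNA in mouse embryonic fibroblasts that differ in the gene for β-actin, Actb, the main cytoplasmic actin of these cells. The KO group held 3 libraries of Actb-/- cells (replicates 1, 3 and 4), the Het group 4 libraries of Actb+/- cells, and the WT group 4 libraries of Actb+/+ cells. All were BALB/c fibroblasts of 10.5 day embryos, grown in DMEM with fetal bovine serum and taken for RNA at 70% confluence. The submitters excluded another KO library on quality grounds, and it is not analysed here. The design text calls the libraries biological replicates, but the labels do not tie them to embryos or cultures, so p-values measure only the spread between these samples, which may be technical.

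Eph receptors are receptor tyrosine kinases that are activated by ephrins on the surface of a neighbouring cell. Ephrin-A ligands are held in the membrane by a lipid anchor and bind mostly EphA receptors, while ephrin-B ligands span the membrane and bind mostly EphB receptors, with EphA4 accepting both classes. Signals run forward through the receptor and in reverse through the ephrin, and both act largely on small GTPases and so on the actin cytoskeleton. In embryonic mesenchyme these contacts are known for repulsion, cell sorting and the formation of tissue boundaries, and in blood vessels for the separation of arterial and venous cells.

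Values are scaled FPKM, that is, the deposited FPKM of the authors (fragments per length of transcript and size of library) divided by a scaling factor per library. Differences are log2 differences of scaled FPKM plus 1 from a limma fit over all genes tested, with p-values adjusted by Benjamini and Hochberg over 14948 genes and called at 0.05. Adding 1 understates the change of genes with low values. In RNA from whole cultures, fewer cells of a type and less RNA per cell cannot be told apart.

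The targeted gene followed the labels. Actb measured 45.8 ± 1.27 scaled FPKM in KO cells (SD, n = 3), 837 ± 24.0 in Het cells (n = 4) and 1325 ± 199.6 in WT cells (n = 4). Relative depth, estimated from the width of the deposited intervals, lay between 61.9% (WT 3) and 124% (WT 4) of WT 1. For the members these intervals, which cover estimation error inside 1 library, had half-widths of 6.92% to 11.7% for Efnb2, 5.72% to 10.1% for Epha2 and 9.4% to 20.2% for Ephb3. The WT libraries differed among themselves with the GC content of the transcript. Across 13318 genes, the deviation of a library from the gene's mean had a Spearman correlation with GC content of -0.51 in WT 1, -0.34 in WT 3, 0.06 in WT 2 and 0.48 in WT 4. It lay between -0.05 (KO 1) and 0.33 (KO 4) in the KO libraries and between -0.26 (Het 2) and 0.21 (Het 4) in the Het libraries. Genes share these libraries and are not independent, so these correlations are descriptions, and values with a correction for GC content, added after seeing the data, are given beside the members they touch. All 11 fibroblast markers passed the filter, and 10 of them rose in KO cells against WT cells. Over all genes tested, 23.3% were called higher and 23.8% lower in KO against WT, which is the background for the marker counts here. The marker sum was 3658 to 4299 scaled FPKM in KO, 2439 to 2762 in Het and 1491 to 1943 in WT. In WT the markers ranged widely, with Thy1 and Pdgfra near 0, at up to 0.0991 and 0.234. Vim, S100a4, Fn1, Pdgfrb and Twist1 averaged 883, 346, 190, 18.5 and 9.55 there. Pdgfra, Col1a2, Col3a1 and Prrx1 were highest in Het, at 4.33, 193, 71.7 and 61.6 on average. They averaged 0.964, 11.5, 38.9 and 29.7 in KO and 0.212, 6.86, 1.37 and 11.5 in WT. In KO against Het, 5 of the fibroblast markers were called higher and 4 lower, beside 22.0% and 22.2% of all genes tested. Thy1 passed the filter only through the KO libraries (1.88 to 2.45), so its place among the 10 depends on the filter. Of 5 smooth muscle markers 3 passed the filter, Acta2, Tagln and Cnn1, and these 3 rose in KO against WT. The list summed to 7132 to 7914 in KO, 233 to 248 in Het and at most 106 in WT. Acta2 alone held 6025 to 6821 in KO. Tagln averaged 39.6 in Het and 43.9 in WT, and the 2 groups overlapped. Of the markers that did not pass, Myh11 stayed at 0.994 or below in every library. Myocd averaged 0.257 in KO and 0.258 in WT. Of 8 epithelial markers 2 passed the filter, and both fell in KO against WT. Krt18 averaged 0.215 ± 0.0706 scaled FPKM in KO, 6.53 ± 1.66 in Het and 1.70 ± 0.196 in WT. Krt18 passed the filter only through the Het and WT libraries, with KO at 0.134 to 0.258, so its place among the 2 depends on the filter. Krt14 was also lower in Het than in WT. Krt14 passed the filter only through the WT libraries (1.09 to 4.83), so its place among the 2 depends on the filter as well. Of the markers that did not pass, Cdh1 and Krt8 were higher in KO than in WT without overlap. Cdh1 averaged 0.288 in KO and 0.14 in WT, and Krt8 0.265 and 0.0243. Epcam went the other way without overlap, at 0.0287 in KO and 0.472 in WT. The epithelial sum was 0.898 to 1.099 in KO, 5.49 to 9.60 in Het and 3.06 to 7.54 in WT. Of 8 neural markers 3 passed, and 2 of them, Pax6 and Nes, fell in KO against WT. Pax6 averaged 0.297 ± 0.0786 in KO, 1.83 ± 0.115 in Het and 2.81 ± 0.335 in WT. Pax6 passed the filter only through the Het and WT libraries, with KO at 0.215 to 0.371, so its place among the 3 depends on the filter. Nes averaged 95.2 ± 1.13 in KO, 57.9 ± 2.61 in Het and 115 ± 3.52 in WT. The remaining marker, Tubb3, was not called in KO against WT (13.6 ± 0.739 in KO, 24.6 ± 3.35 in Het and 10.9 ± 4.10 in WT). Its Het values lay above its WT values without overlap. The neural sum was 109 to 112 in KO, 83.4 to 87.0 in Het and 123 to 133 in WT, with Sox10 at 0 in every library. Of 8 macrophage and blood markers, Adgre1 had no locus under that symbol and so no value. Of the others 1 passed, Cd68, and was not called. Their sum was 2.11 to 4.64 in KO, 1.19 to 2.35 in Het and 1.69 to 2.99 in WT, with Ptprc and Hbb-bt at 0. The part of these marker groups in the values below was not tested.

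3 members were called higher in KO cells than in both other groups and lay apart from them without overlap. Efnb2, the gene of ephrin-B2, was highest in KO, intermediate in WT and lowest in Het. Epha4 rose in both KO and Het over WT. Ephb3 was highest in KO, and its Het and WT libraries overlapped. Their promoter windows, the 250 bases before the first transcribed base, are shown because these members carry the differences between KO and WT; they were picked after their values were seen. They are taken from RefSeq for GRCm38.p6, written 5′ to 3′ on the strand of the gene, with matches to GGGCGG, the core of the Sp1 motif, and GGAATG, the TEAD motif, in capitals.

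The Epha4 window lies at chr1:77515089-77515338 on the minus strand and holds 1 GGGCGG; the Ephb3 window lies at chr16:21204545-21204794 on the plus strand and holds 2; the Efnb2 window lies at chr8:8661243-8661492 on the minus strand, 469 bases beyond the end of the deposited locus, and holds 3 together with 1 GGAATG.
Epha4: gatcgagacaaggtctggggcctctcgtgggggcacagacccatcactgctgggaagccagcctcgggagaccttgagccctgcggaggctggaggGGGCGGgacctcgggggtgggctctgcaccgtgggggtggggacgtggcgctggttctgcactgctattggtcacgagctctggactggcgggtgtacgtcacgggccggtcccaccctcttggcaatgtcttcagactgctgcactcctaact
Ephb3: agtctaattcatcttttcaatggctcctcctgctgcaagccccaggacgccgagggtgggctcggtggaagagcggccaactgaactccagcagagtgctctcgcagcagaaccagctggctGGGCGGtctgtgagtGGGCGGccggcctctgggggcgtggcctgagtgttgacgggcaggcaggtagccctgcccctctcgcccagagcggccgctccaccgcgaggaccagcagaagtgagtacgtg
Efnb2: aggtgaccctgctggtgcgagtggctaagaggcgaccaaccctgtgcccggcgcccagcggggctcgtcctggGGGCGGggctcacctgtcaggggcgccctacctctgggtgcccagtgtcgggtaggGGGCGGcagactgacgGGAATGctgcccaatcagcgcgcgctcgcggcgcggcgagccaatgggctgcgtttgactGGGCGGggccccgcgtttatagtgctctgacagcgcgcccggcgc

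The 3 windows had a GC content above the median of all windows, as had those of all 10 members, with Epha2 only a little above it. Across the 10 members, window GC content ran from 55.6% to 74.8% and CpG counts from 9 to 32, where the medians of 32851 RefSeq windows of the same length were 52.4% and 6. GGGCGG, read on both strands, lay in windows of 7 members and in 32.7% of all windows. GGAATG lay in windows of Epha2, Epha3 and Efnb2 and in 12.6% of all windows. The CArG box, which serum response factor binds, lay in no member's window and in 1.47% of all windows; the AP-1 motif TGANTCA lay in none and in 6.75%, and CACGTG in none and in 6.02%. A match here is a run of letters, not a site in use, and a missing match says only that these letters are not in the window.

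Among the ligands, Efnb2 (8:8617235-8660773, GRCm38) encodes ephrin-B2, which binds EphB4 and other EphB receptors and marks arterial endothelium in vessels. It measured 29.7, 30.3 and 29.7 scaled FPKM in KO 1, 3 and 4, 10.1, 10.4, 10.4 and 10.1 in Het 1 to 4, and 17.8, 17.9, 17.8 and 18.8 in WT 1 to 4. The 3 groups did not overlap, and the spread inside each was small beside the distances between them. The means were 29.9 ± 0.375 in KO, 10.3 ± 0.188 in Het and 18.1 ± 0.511 in WT (SD, n = 3, 4 and 4). Efnb2 rose in KO against WT by 0.70 (log2, SE 0.0490, limma adjusted p = 9.07e-07), fell in Het against WT by 0.76 (SE 0.0454, limma adjusted p = 3.98e-07), and was higher in KO than in Het by 1.46 (limma adjusted p = 3.64e-09). Het thus lay below both other groups, and the 24 alternatives tried kept each of these calls. Endothelial cells also express Efnb2 and Ephb4. Their 10 markers summed to 0.679 to 0.811 scaled FPKM in KO, 0.332 to 0.613 in Het and 0.145 to 0.390 in WT, no marker passed the filter, and Tie1, Emcn and Cldn5 were at 0 in every library.

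Efnb1 (X:99136130-99148991) encodes ephrin-B1, the ligand whose loss causes craniofrontonasal syndrome in people. It measured 2.15, 3.54 and 3.12 scaled FPKM in KO 1, 3 and 4, 1.71, 1.84, 2.87 and 2.45 in Het 1 to 4, and 1.82, 2.93, 2.40 and 3.85 in WT 1 to 4. The 3 groups overlapped throughout. It was not called, with 0.08 in KO against WT (95% interval -0.35 to 0.52, limma adjusted p = 0.761), -0.21 in Het against WT (95% interval -0.61 to 0.20) and 0.29 in KO against Het (-0.15 to 0.73). With array weights the difference of KO against Het was 0.44 and was called (limma adjusted p = 0.0204). With GC correction Efnb1 was called lower in Het than in WT, at -0.29 (limma adjusted p = 0.0316).

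Efna5 (17:62602957-62881317) encodes ephrin-A5, a ligand of EphA receptors that guides axons in retinotopic mapping. It measured 3.47, 3.66 and 3.67 scaled FPKM in KO 1, 3 and 4, 3.62, 3.92, 3.29 and 3.15 in Het 1 to 4, and 4.24, 4.13, 3.81 and 3.98 in WT 1 to 4. Every KO value lay below every WT value, while Het overlapped WT. The differences were small and not called: -0.13 in KO against WT (95% interval -0.30 to 0.04, limma adjusted p = 0.189) and -0.17 in Het against WT (95% interval -0.33 to -0.01, limma adjusted p = 0.0812). Without Het 2 the Het difference was -0.21 and was called (limma adjusted p = 0.0427). Without scaling the KO difference was -0.21 and was called (limma adjusted p = 0.0329), and with GC correction it was -0.0568 and was not (limma adjusted p = 0.558).

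**Figure D1:**
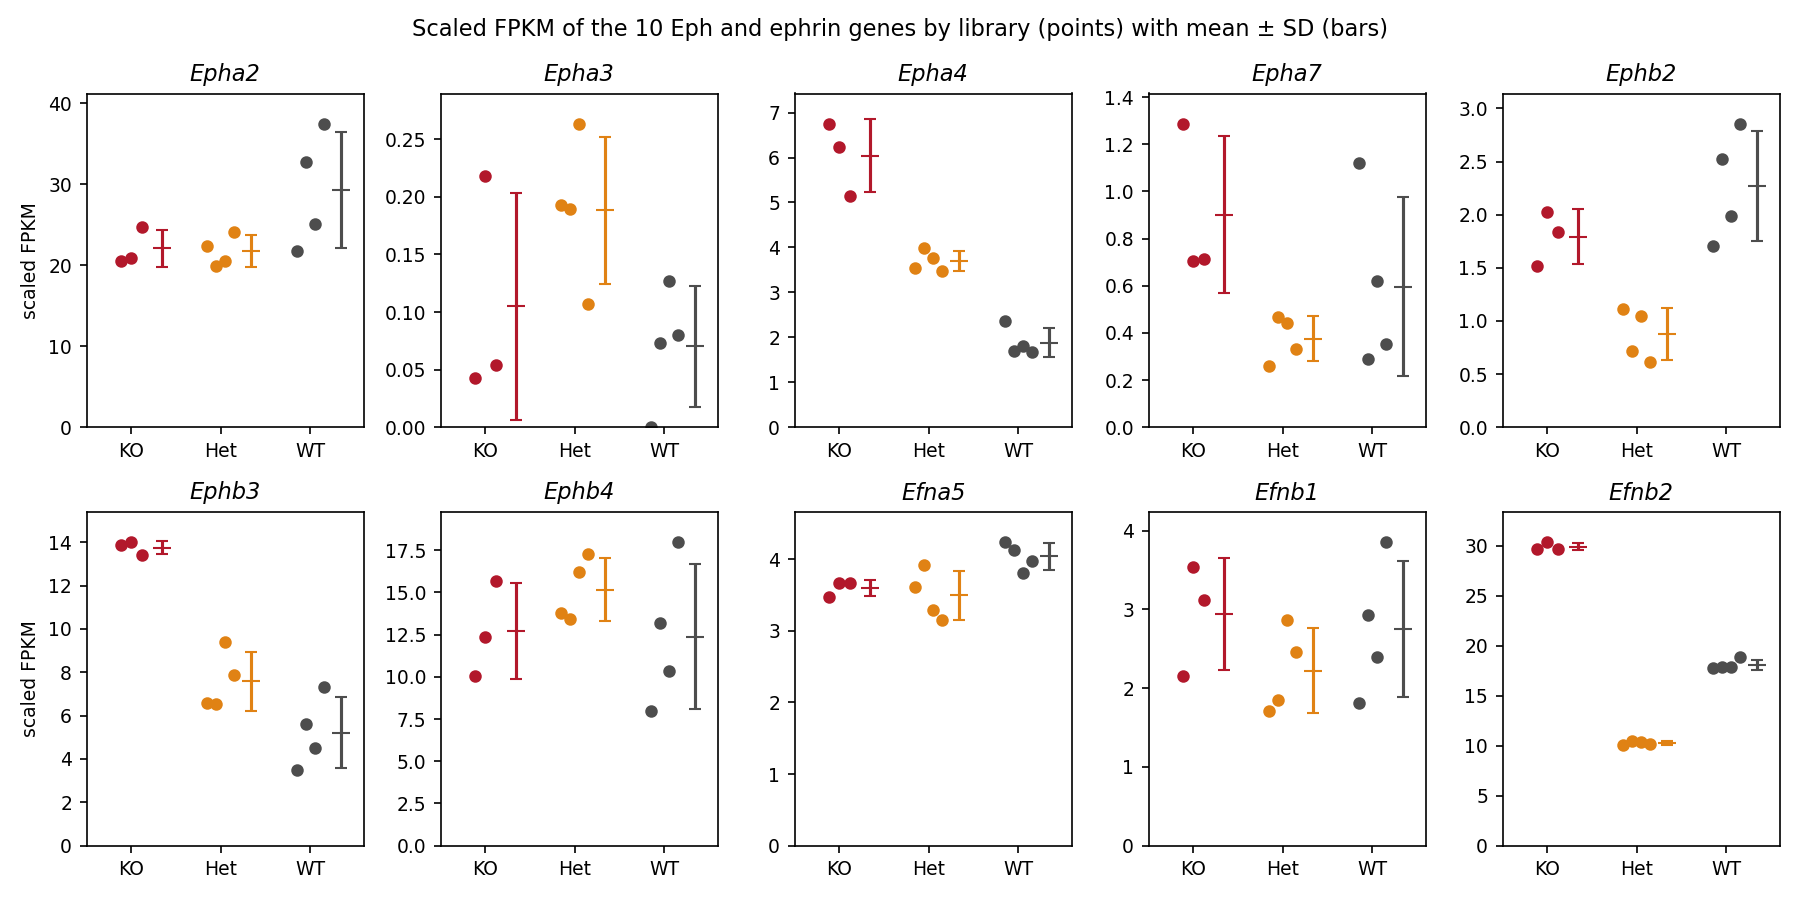
Scaled FPKM of the 10 members in each library, by group (KO, Het, WT on the horizontal axis of each panel); points are libraries and bars the mean ± SD. Efnb2 lies between 29.7 and 30.3 in KO, between 10.1 and 10.4 in Het and between 17.8 and 18.8 in WT, and Epha4 is highest in KO and lowest in WT with no overlap.

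Among the EphB receptors, Ephb3 (16:21204795-21223309) encodes a receptor for ephrin-B ligands that takes part in positioning cells of the intestinal crypt and in closing the palate, together with EphB2. It measured 13.9, 14.0 and 13.4 scaled FPKM in KO 1, 3 and 4, 6.57, 6.52, 9.39 and 7.88 in Het 1 to 4, and 3.47, 5.59, 4.50 and 7.31 in WT 1 to 4. KO lay above every other library, and Het overlapped WT. Ephb3 rose in KO against WT by 1.28 (SE 0.186, limma adjusted p = 0.000201) and was higher in KO than in Het by 0.79 (limma adjusted p = 0.00497). In Het against WT it rose by 0.49 (SE 0.172, limma adjusted p = 0.0389), but this call was lost in 10 of 24 alternatives, among them leaving out WT 1 (0.34, limma adjusted p = 0.0893), Het 3 (0.39, limma adjusted p = 0.111) or any of WT 2, WT 3, Het 4, KO 1, KO 3 and KO 4 (limma adjusted p = 0.0511 to 0.0942). Over all alternatives the Het call ranged in adjusted p from 0.00264 to 0.111, the lowest with GC correction.

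Ephb2 (4:136647536-136836295) encodes the other crypt receptor, which also takes part in synapse formation. It measured 1.52, 2.03 and 1.84 scaled FPKM in KO 1, 3 and 4, 1.12, 0.715, 1.05 and 0.618 in Het 1 to 4, and 1.71, 2.53, 1.99 and 2.85 in WT 1 to 4. Het lay below both other groups without overlap, and KO overlapped WT. Ephb2 fell in Het against WT by 0.80 (SE 0.133, limma adjusted p = 0.000656) and was higher in KO than in Het by 0.58 (limma adjusted p = 0.00674), while KO against WT was -0.22 (95% interval -0.53 to 0.10, limma adjusted p = 0.241). With GC correction the KO difference was -0.32 and was called (limma adjusted p = 0.0263).

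Ephb4 (5:137350109-137374522) encodes the receptor most selective for ephrin-B2, which marks veins. Its locus overlaps the predicted gene LOC105242538, at up to 4.40 scaled FPKM, and how reads were split between them is not given. It measured 10.0, 12.4 and 15.7 in KO 1, 3 and 4, 13.8, 13.4, 16.2 and 17.3 in Het 1 to 4, and 7.98, 13.2, 10.3 and 17.96 in WT 1 to 4. The groups overlapped, and WT alone spanned the whole range of the other libraries. Ephb4 was not called, at 0.07 in KO against WT (95% interval -0.43 to 0.57, limma adjusted p = 0.824), 0.32 in Het against WT (-0.14 to 0.79) and -0.25 in KO against Het (-0.75 to 0.25). Without WT 4 the Het difference was 0.51 and was called (limma adjusted p = 0.0332); with GC correction Het against WT was 0.23 (limma adjusted p = 0.0193) and KO against Het -0.34 (limma adjusted p = 0.00363), both called.

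Among the EphA receptors, Epha4 (1:77367182-77515103) encodes the receptor that binds both ephrin classes and is known for limb mesenchyme and axon guidance. It measured 6.75, 6.24 and 5.15 scaled FPKM in KO 1, 3 and 4, 3.55, 3.98, 3.77 and 3.48 in Het 1 to 4, and 2.36, 1.70, 1.81 and 1.67 in WT 1 to 4. The groups did not overlap, and the level was highest in KO, intermediate in Het and lowest in WT. A trend with the number of intact Actb genes was not tested. The means were 6.05 ± 0.817 in KO, 3.69 ± 0.228 in Het and 1.88 ± 0.324 in WT (SD). Epha4 rose by 1.29 in KO against WT (SE 0.107, limma adjusted p = 3.2e-06), by 0.71 in Het against WT (SE 0.0988, limma adjusted p = 0.000192) and by 0.58 in KO against Het (limma adjusted p = 0.00112), and no alternative changed a call.

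Epha2 (4:141301221-141329384) encodes the receptor that prefers ephrin-A1 and is common in epithelia and fibroblasts. It measured 20.5, 20.9 and 24.8 scaled FPKM in KO 1, 3 and 4, 22.4, 19.9, 20.5 and 24.2 in Het 1 to 4, and 21.7, 32.7, 25.1 and 37.5 in WT 1 to 4. KO and Het overlapped WT through WT 1 alone. The differences missed the threshold, at -0.37 in KO against WT (95% interval -0.72 to -0.01, limma adjusted p = 0.0851) and -0.39 in Het against WT (-0.71 to -0.06, limma adjusted p = 0.0575). Without WT 1 they were -0.49 (limma adjusted p = 0.0143) and -0.51 (limma adjusted p = 0.00921), both called, and with GC correction -0.50 (limma adjusted p = 4.18e-05) and -0.45 (limma adjusted p = 6.63e-05). Without scaling the KO difference was -0.46 and was called (limma adjusted p = 0.0460).

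Epha3 (16:63545218-63864157), a receptor for ephrin-A5, and Epha7 (4:28813044-28967511), a receptor of neural patterning, did not pass the filter. Epha3 stayed at 0.263 scaled FPKM or below in every library and was listed at 0 in WT 1. Epha7 averaged 0.901 ± 0.334 in KO, 0.376 ± 0.0972 in Het and 0.597 ± 0.378 in WT (SD), with the highest value 1.29 in KO 1. In a fit without the filter neither was called in any of the 3 comparisons, with adjusted p between 0.0982 and 0.722.

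Counted together, 3 of the 8 members tested rose in KO against WT (Epha4, Ephb3 and Efnb2) and 0 fell (1, Epha2, at an unadjusted p under 0.05), where limma called 47.1% of all genes tested, 23.3% higher and 23.8% lower. The 0 depends on the setting: 2 members were called lower without scaling (Epha2 and Efna5) and 2 with GC correction (Epha2 and Ephb2), with 3 higher in both. In Het against WT, 2 rose (Epha4, Ephb3) and 2 fell (Ephb2, Efnb2), where 43.8% of all genes were called, 21.7% higher and 22.1% lower. In KO against Het, 4 rose (Epha4, Ephb2, Ephb3, Efnb2) and 0 fell (0 at an unadjusted p under 0.05), where 44.2% of all genes were called, 22.0% higher and 22.2% lower. With GC correction 3 members were higher and 4 lower in Het against WT, and 4 higher and 1 lower in KO against Het. Of 13318 genes it called 3866 higher and 3900 lower in KO against WT, and 3727 and 3787 in Het against WT. In KO against Het it called 3798 and 3759. Without the correction, the member counts in either direction lie close to the background, so that share says nothing particular to the family. The split by direction, and the 7 of 8 members called with GC correction in Het against WT, lie further from the background and were not tested. The median log2 difference of the 8 members was 0.08 in KO against WT, -0.19 in Het against WT and 0.43 in KO against Het, beside 0.01 over all genes in each. Without scaling, the share of higher calls among all genes was 37.1% in KO against WT and 36.5% in KO against Het, in place of 49.4% and 49.8%. The comparisons share libraries, so calls that recur are not separate evidence. KO and WT libraries did not overlap for 4 of the 8 members, beside 46.4% of all genes tested, Het and WT for 3, beside 39.5%, and KO and Het for 4, beside 54%.

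**Figure D2:**
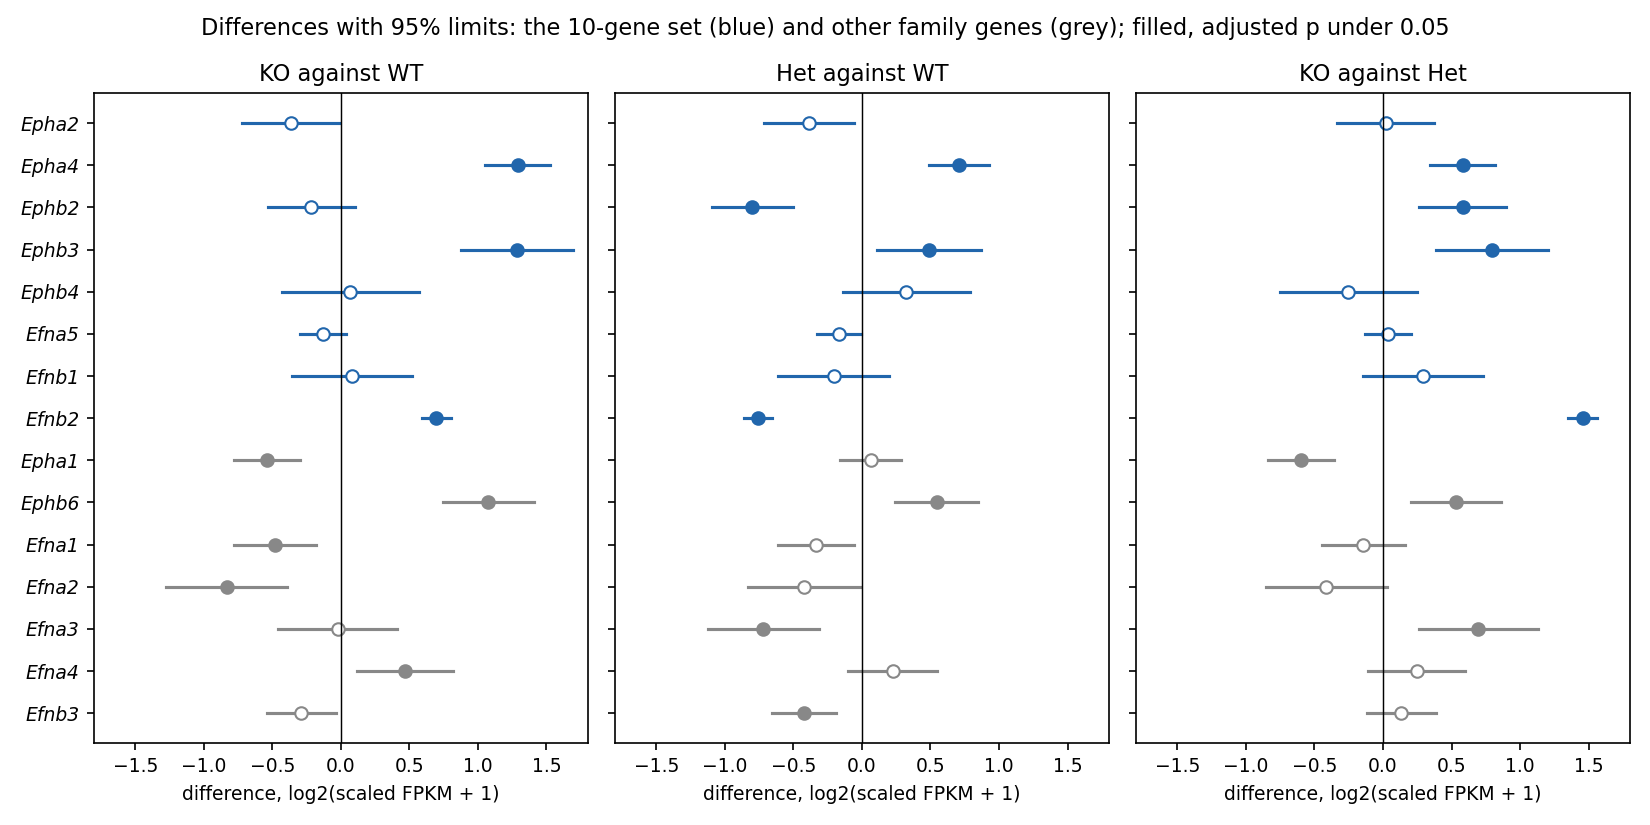
Log2 difference of scaled FPKM plus 1, with 95% interval, for the tested Eph and ephrin genes in the 3 comparisons, with members in blue, other family genes in grey and filled points past the threshold. Epha4 and Efnb2 have intervals clear of 0 in every comparison, at 1.29 and 0.70 in KO against WT and 0.71 and -0.76 in Het against WT.

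Summed, the other 12 family genes averaged 23.7 scaled FPKM in KO, 22.5 in Het and 26.5 in WT. The 10 members summed to 93.8, 65.6 and 76.5. Among the ephrins, however, Efna1 (12.6 in WT) and Efna4 (5.02) averaged above the members Efna5 (4.04) and Efnb1 (2.75). Epha5, Epha6, Epha8, Epha10 and Ephb1 did not pass the filter, and the highest value among them was 0.0623 scaled FPKM. Of 7 tested, 2 rose and 3 fell in KO against WT, where 23.3% of all genes were called higher and 23.8% lower. Ephb6, a receptor whose kinase is inactive, measured 2.98, 2.72 and 2.63 scaled FPKM in KO 1, 3 and 4, 1.74, 1.33, 1.81 and 1.59 in Het 1 to 4, and 0.502, 1.01, 0.493 and 1.28 in WT 1 to 4. The 3 groups did not overlap. Ephb6 rose by 1.08 in KO (limma adjusted p = 0.000147) and by 0.54 in Het (limma adjusted p = 0.00837) over WT. Efna2 fell by 0.83 in KO against WT (limma adjusted p = 0.00529), with 1.20 ± 0.217 scaled FPKM in KO and 3.04 ± 1.31 in WT, and WT 4 alone held 5.00. Efna1, the preferred ligand of EphA2, fell by 0.48 (limma adjusted p = 0.0139), a call lost without KO 3 (limma adjusted p = 0.0660) or KO 4 (limma adjusted p = 0.0596). Efna4 rose by 0.47 (limma adjusted p = 0.0318), a call lost without WT 1, WT 3 or any KO library (limma adjusted p = 0.0515 to 0.122). The Efna4 call was also lost without scaling (limma adjusted p = 0.0835), without the filter (0.0691) and with only the 2 groups compared (0.0676). Epha1 fell by 0.54 (limma adjusted p = 0.00201), but its locus overlaps Zyx, which reached 151.9 scaled FPKM, so this value is uncertain. In Het against WT, Efna3 fell by 0.72 (limma adjusted p = 0.00845) and Efnb3 by 0.42 (limma adjusted p = 0.00803).

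Summed per class on the FPKM scale, which is per length, the 8 ephrins reached 56.8 ± 0.661 scaled FPKM in KO, 35.4 ± 2.11 in Het and 49.2 ± 4.85 in WT. The 14 receptors reached 60.8 ± 3.76 in KO, 52.7 ± 3.94 in Het and 53.9 ± 13.6 in WT. The ephrin sums of Het lay below those of both other groups. The receptor sums of KO lay above those of Het, and the WT libraries, at 39.9 to 70.4, spanned both. Shares within each class were taken per library and not tested. Epha2 made up 36.3 ± 1.67% of receptor FPKM in KO, 41.3 ± 2.87% in Het and 54.4 ± 0.939% in WT, and Ephb3 22.7 ± 1.81% in KO, 14.3 ± 1.88% in Het and 9.57 ± 0.688% in WT. Among the ligands, Efnb2 made up 52.7 ± 1.25% in KO, 29.1 ± 1.76% in Het and 36.9 ± 2.86% in WT, while Efna1 made up 15.5 ± 3.23% in KO, 27.6 ± 0.943% in Het and 25.8 ± 3.55% in WT (SD, n = 3, 4 and 4).

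**Figure D3:**
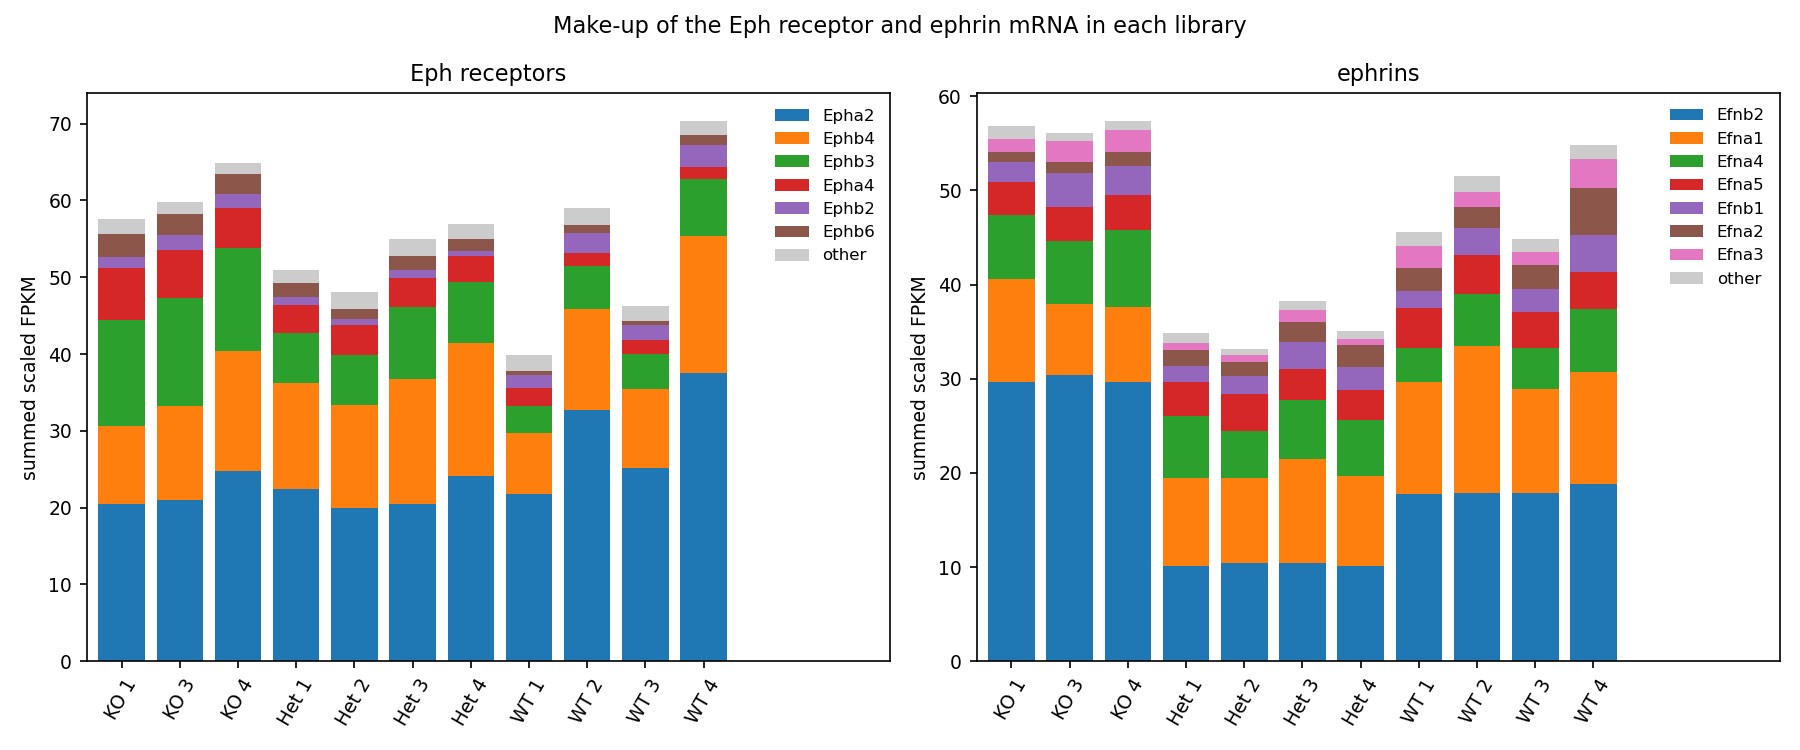
Stacked bars of scaled FPKM of the Eph receptors (left) and ephrins (right) in each KO, Het and WT library, with the lowest genes pooled as other. On average Efnb2 takes 52.7% of ephrin FPKM in KO against 36.9% in WT, and Epha2 takes 36.3% of receptor FPKM in KO against 54.4% in WT.

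By level, WT cells ordered the members Epha2 (29.3 scaled FPKM), Efnb2 (18.1), Ephb4 (12.4), Ephb3 (5.22), Efna5 (4.04), Efnb1 (2.75), Ephb2 (2.27), Epha4 (1.88), Epha7 (0.597) and Epha3 (0.0701). In KO cells Efnb2 came first, at 29.9, followed by Epha2 (22.1), Ephb3 (13.8) and Ephb4 (12.7). In Het cells the order began with Epha2 (21.7), Ephb4 (15.2), Efnb2 (10.3) and Ephb3 (7.59). Neighbours often overlapped: in KO the ranges of Ephb3 and Ephb4 overlapped, in Het those of Epha4 and Efna5, and in WT those of Ephb4 and Efnb2 and of Efnb1 and Ephb2.

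6 members had their lowest WT value in WT 1, then WT 3, WT 2 and WT 4, and Actb had the same order. They were Epha2, Ephb2, Ephb3, Ephb4, Efnb1 and Efnb2, and apart from Efnb2 their transcripts had a GC content of 55.3% to 58.4%. The log2 difference of WT 4 minus WT 1 was 1.08 for Ephb4, 0.89 for Ephb3, 0.78 for Efnb1, 0.76 for Epha2 and 0.51 for Ephb2, and only 0.08 for Efnb2 at 50.4% GC, -0.07 for Efna5 at 44.8% and -0.33 for Epha4 at 45.6%. Over all genes the median of that difference was -0.38 under 40% GC and 0.58 between 55% and 60%. With a correction for GC content the WT standard deviation of log2 values was 0.09 for Epha2, against 0.34 without it, 0.13 for Ephb4, against 0.46, and 0.11 for Ephb3, against 0.38. It was wider with the correction for Efna5, at 0.11 against 0.05, and for Efnb2, at 0.0467 against 0.0381, and the KO standard deviation of Ephb3 was 0.15 with it, against 0.0303 without. Whether GC content of the transcripts causes these differences was not tested.

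**Figure D4:**
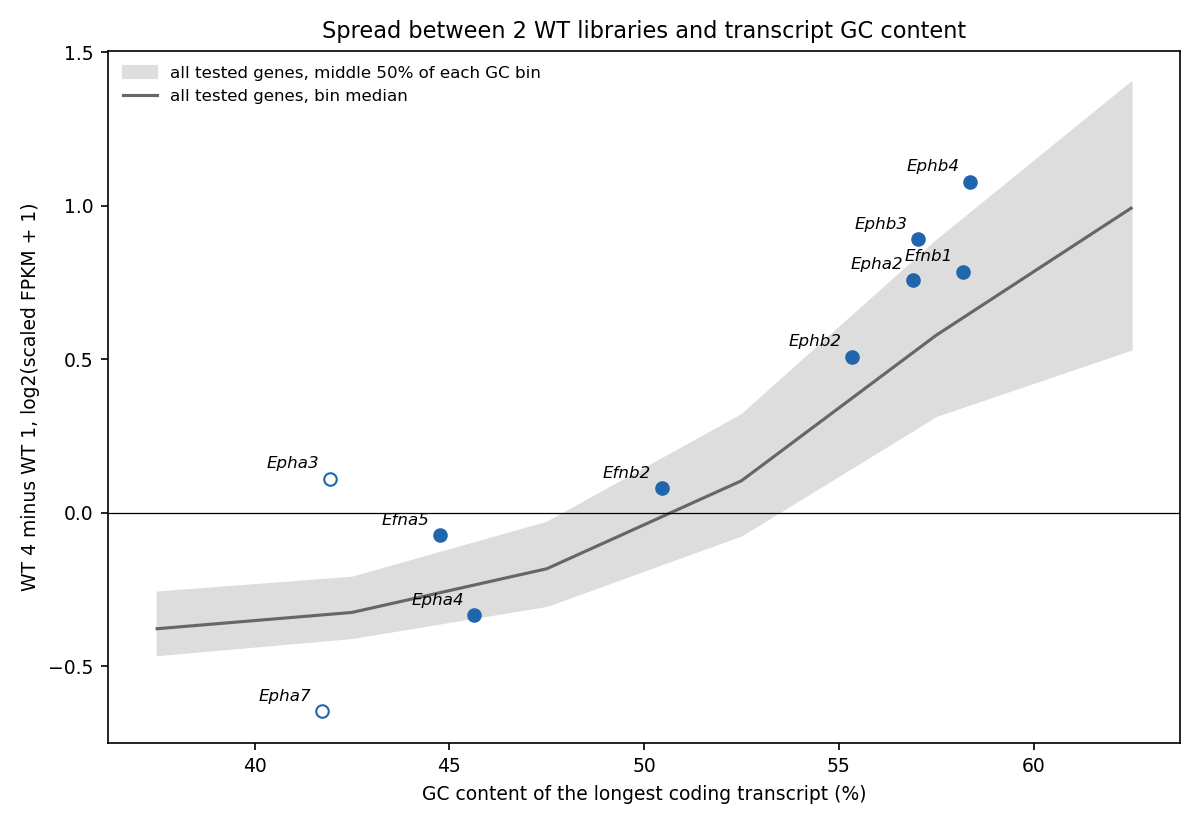
Log2 difference of WT 4 minus WT 1 against transcript GC content (percent) for the members, with the median and middle 50% of all genes by GC bin as line and band; open points did not pass the filter. The members above 55% GC lie between 0.51 and 1.08, and Epha4 lies at -0.33.

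**Figure D5:**
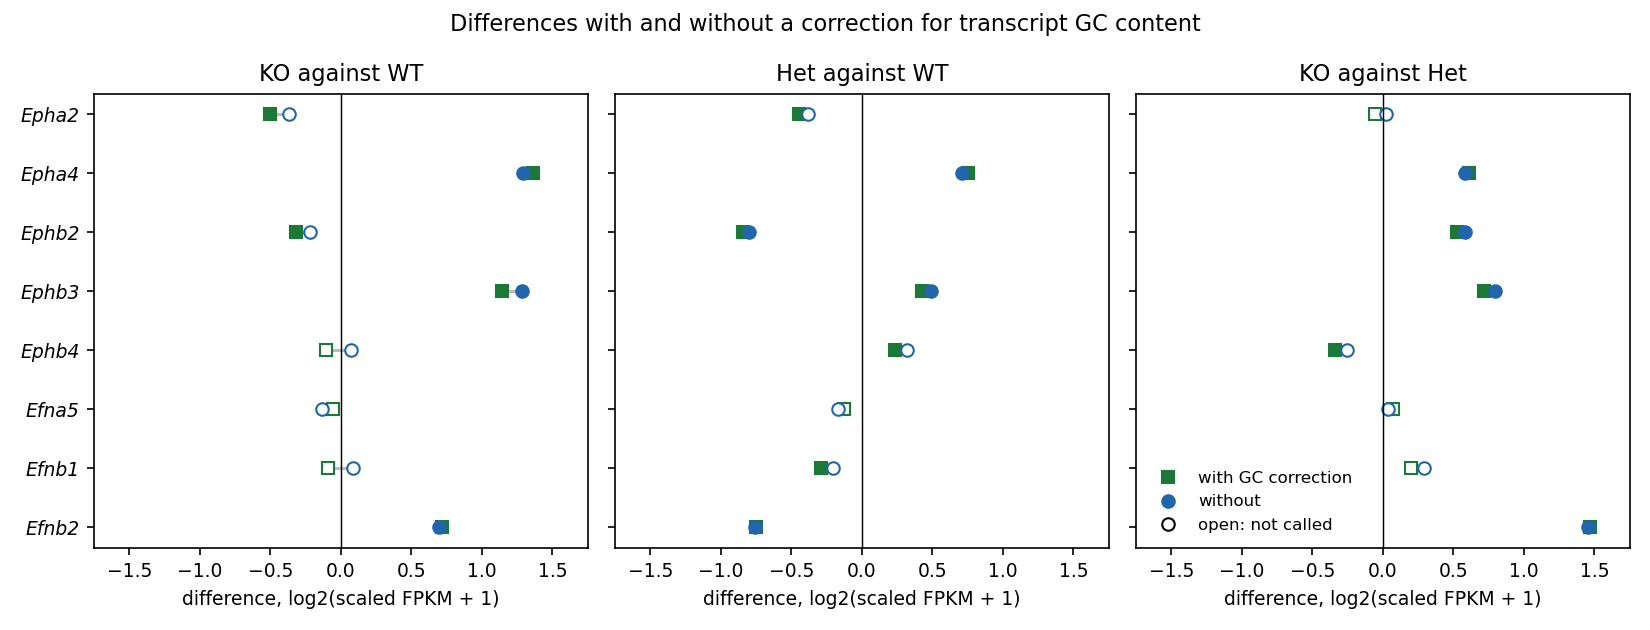
Log2 difference of each member in each comparison, with (squares) and without (circles) a correction for GC content; open symbols were not called. Epha2 moves to -0.50 in KO against WT with correction, and Epha4, Ephb3 and Efnb2 keep their calls.

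The partners that carry Eph and ephrin signals were listed with the members known. Beside their counts, 23.3% of all genes were called higher and 23.8% lower in KO against WT, 21.7% and 22.1% in Het against WT, and 22.0% and 22.2% in KO against Het. Of 18 adaptors and cytoplasmic kinases tested, 6 rose and 0 fell in KO against WT (1 lower at an unadjusted p under 0.05), with a median of 0.08. Grb10, an adaptor that binds activated receptors, rose by 1.51 (limma adjusted p = 5.37e-08), with 121 ± 11.1 scaled FPKM in KO, 49.8 ± 1.91 in Het and 41.9 ± 2.70 in WT. Fyn, a Src family kinase, rose by 1.19, Nck2 by 0.85 and Sla by 0.73. Sla passed the filter only through the KO libraries, at 1.51 to 1.97 scaled FPKM, with at most 0.532 in Het and 0.791 in WT. Its place among the 6 that rose was thus set in part by the filter. Of 16 regulators of small GTPases, 4 rose and 3 fell, with a median of 0.01. The exchange factor Kalrn rose by 1.47 and the Rap GTPase-activating protein Sipa1l1 by 1.02, while the chimaerin Chn2 fell by 0.79. Chn2 averaged 0.105 scaled FPKM in KO, 1.98 in Het and 0.930 in WT. It passed the filter only through the Het libraries (1.59 to 2.41) and WT 3 (1.37). Its place among the 3 that fell was thus set in part by the filter. Of 13 partners of the ephrin-B tail, 6 rose and 0 fell (0 lower at an unadjusted p under 0.05), with a median of 0.23. Zhx2 rose by 2.15, the phosphatase Ptpn13 by 0.93, Rgs3 by 0.53 and Dvl2 by 0.97, the last a call lost without KO 4 (limma adjusted p = 0.0604). Zhx2 passed the filter only through the KO (4.10 to 4.67) and Het (2.62 to 3.08) libraries, with 0.0798 to 0.323 scaled FPKM in WT. Its place among the 6 that rose was thus set in part by the filter. Of 16 proteases and phosphatases, 9 rose and 4 fell, with a median of 0.17; the metalloprotease Adam12 rose by 1.65, Mmp14, which cleaves EphA2, by 0.85, Inppl1, a lipid phosphatase that binds EphA2, by 0.77, and Ptprf by 0.82, lost without KO 4 (limma adjusted p = 0.0576). In Het against WT, 7 adaptors and kinases rose and 4 fell, 3 GTPase regulators rose and 4 fell, 5 tail partners rose and 1 fell, and 6 proteases and phosphatases rose and 4 fell. In KO against Het the adaptors had 7 higher and 3 lower, the GTPase regulators 4 and 3, the tail partners 3 and 3, and the proteases and phosphatases 7 and 4.

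By Pearson correlation over the 11 libraries, the genes most like Epha4 were Gypc (0.992), Phyhipl (0.991) and Iqgap1 (0.989), those most like Ephb3 were Maged1 (0.996), Gsn (0.979) and Ssh1 (0.978), and those most like Efnb2 were Mustn1 (0.996) and Plin2 (0.995). The libraries share group and depth, so these values describe only likeness of pattern over the libraries, not of level. Mustn1 averaged 10.9 scaled FPKM in KO, 0.782 in Het and 3.53 in WT.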

How the data were processed

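The deposited tables give FPKM (fragments normalised for length and library size) estimated by the authors, with interval ends, using Cufflinks 2.2.1 on TopHat2 2.1.0 alignments to GRCm38.p4, per the submitters' processing notes, which also name Cuffdiff without a version. FPKM of loci with the same symbol were summed; no count model was applied, as the values are not counts. Each library was divided by a median-of-ratios factor (0.937 to 1.04, from 13981 genes). Genes with at least 1 scaled FPKM in at least 3 libraries were kept. All 11 libraries entered 1 fit of log2(FPKM + 1) by limma 3.58.1 (R 4.3.3), a mean for each group and a mean-variance trend. limma p-values were adjusted over all genes (two-sided, threshold 0.05). The fit was tested on simulated data. The members and gene lists were chosen with earlier results of these data known. The genes named are the members, the other family genes and up to 4 called genes from each partner list with the largest difference in KO against WT, and, for the 3 members with the largest absolute difference in KO against WT, the 3 tested genes of highest Pearson correlation, leaving out predicted and clone names; 1 gene that the rule takes is not reported here. GC content came from GENCODE vM21 transcripts (GRCm38) for 13318 of 14948 genes, promoter windows from RefSeq GRCm38.p6, and the GC correction was a lowess (span 0.3) of deviation from the gene mean, added after seeing the data.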

Additional observations from a re-analysis of the deposited data

Results flagged for a closer look

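In 36 groups of 4 libraries, 3 libraries stood apart from the rest of their group, where chance gives about 1 in 20 groups. Efnb2 was 18.8 scaled FPKM in WT 4, the highest of the WT libraries by a gap set against the range of that group. Efna2 was 5.00 scaled FPKM in WT 4, well above the other WT libraries. Efna3 was 1.20 scaled FPKM in Het 3, the highest of the Het libraries.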

How the results depend on the processing

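The counts over all genes stayed within 1.5 times of the reported count in all 24 alternatives (5790 to 8269 in KO against WT, 5681 to 7720 in Het against WT, 5464 to 9085 in KO against Het). Member counts of 3, 4 and 4 changed to 5 (3 higher, 2 lower) in KO against WT without scaling and to 5 and 7 in KO and Het against WT with GC correction, with or without the replicate block. Leaving out 1 library gave 3 to 4 members in KO against WT, 3 to 5 in Het against WT and 4 in KO against Het. The replicate block gave 7294, 6993 and 6879 calls and 3, 5 and 4 members. Same-numbered libraries had correlated deviations of -0.10 to 0.35, over 0.1 in 5 of 10 pairs, and 6 of 11 libraries correlated best with their own number. As not every pair exceeded 0.1 and no label ties the numbers to a shared source, the numbers were not used as pairs. Under the block Epha2 in Het against WT was -0.39 and was called (limma adjusted p = 0.0265), and so were Efna2 in Het against WT (limma adjusted p = 0.0217) and in KO against Het (limma adjusted p = 0.0181). Uncalled differences changed sign as follows. Ephb4 in KO against WT was -0.0227 without scaling, -0.10 without WT 1, -0.0826 without KO 4 (highest without 1 library 0.257) and -0.11 with GC correction, with or without block. Efnb1 in KO against WT was -0.0448 without WT 1, -0.0278 without KO 3 (highest 0.236), -0.0895 with GC correction and -0.0974 with GC correction and block. Efna3 in KO against WT was 0.19 with array weights, 0.0275 without WT 1, 0.13 without WT 4 and 0.13 without KO 1 (lowest -0.14), and Epha1 in Het against WT was -0.00905 without WT 1 (highest 0.15). Epha2 in KO against Het was -0.0838 without scaling, -0.00848 with upper-quartile scaling, -0.0202 with array weights, -0.0192 without Het 2, -0.0061 without Het 3, -0.062 without KO 4 (highest 0.0699), -0.0551 with GC correction and -0.0431 with GC correction and block. Efna5 in KO against Het was -0.0474 without scaling and -0.000142 without Het 4 (highest 0.0812). The cause of these changes was not tested. FPKM carry no counts, so no counting limit can be given for low members such as Epha3.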
